A study of Rattus norvegicus with 9 samples.

Results

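Hypoxia response genes are the genes by which cells sense and answer a fall in oxygen. The 8 examined here were Hif1a, Egln1, Egln3, Ldha, Pfkfb3, Vegfa, Adm and Ndrg1. They were found by gene name in the FPKM table (fragments scaled by transcript length and sequencing depth), where all 8 had 1 row among 11235 genes, and all 8 also passed the filter on low counts that left 17335 of 30454 genes for testing. Kidney RNA of wild-type Sprague-Dawley rats aged 6 to 8 weeks was sequenced in 9 libraries, 3 for each of 3 groups. The I/R + rapamycin group had 45 min of renal ischaemia, reperfusion and rapamycin, a drug that blocks the kinase mTOR. The I/R group had 45 min of ischaemia and reperfusion without the drug, and the sham group had the operation alone. The series text names male rats, the left renal artery and 1 mg/kg of rapamycin per day given intraperitoneally. The sample protocols name both sexes, 6 groups, oral gavage from the day before surgery, daily doses of 1 or 2 mg/kg, and reperfusion for 3 or 7 days, so the dose, route and reperfusion time of these libraries are not settled, nor is the clamped or sampled side. The replicate numbers are not said to be separate animals, and p-values then reflect only how far these libraries spread, which may be partly technical.

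In well-oxygenated cells the prolyl hydroxylases encoded by the Egln genes mark the HIF alpha subunits for destruction through the VHL ubiquitin ligase. When oxygen falls the mark is not made, HIF alpha accumulates, pairs with ARNT and binds short sites near genes of glycolysis, blood vessel growth and vasodilation. Much of this control acts on the HIF protein, which RNA values do not measure. The kidney is known for a steep oxygen gradient from cortex to medulla, and ischaemia followed by reperfusion adds a period without blood flow.

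The core of a HIF binding site reads ACGTG or GCGTG. Both were searched on both strands in the RefSeq promoter windows of the GRCr8 rat build, each running from 250 bases before to 50 bases after a gene's start. Of 33469 windows of this length, 41.6% held at least 1 match and 19.3% held ACGTG. Of the members, 7 had a window (8 windows, since Vegfa has 2), and Ndrg1 had no entry. Hif1a, Egln1, Ldha and Pfkfb3 held matches, and Egln3, both Vegfa windows and Adm held none in these letters. The windows of Ldha, Pfkfb3 and Adm are shown because these members had the smallest p of the 8 in the 3 comparisons, 1 each. Capitals mark every match on either strand, 5′ to 3′ on the strand of the gene, and CACGTG is a match on both strands at once, so it counts as 2.
Ldha, chr1:106507842-106508141, plus strand: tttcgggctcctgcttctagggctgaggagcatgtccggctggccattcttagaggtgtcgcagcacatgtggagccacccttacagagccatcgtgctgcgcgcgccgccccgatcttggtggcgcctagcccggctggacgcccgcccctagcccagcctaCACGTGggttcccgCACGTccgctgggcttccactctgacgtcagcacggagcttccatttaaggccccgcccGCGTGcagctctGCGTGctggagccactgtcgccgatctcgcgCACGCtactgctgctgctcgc
Pfkfb3, chr17:71944683-71944982, plus strand: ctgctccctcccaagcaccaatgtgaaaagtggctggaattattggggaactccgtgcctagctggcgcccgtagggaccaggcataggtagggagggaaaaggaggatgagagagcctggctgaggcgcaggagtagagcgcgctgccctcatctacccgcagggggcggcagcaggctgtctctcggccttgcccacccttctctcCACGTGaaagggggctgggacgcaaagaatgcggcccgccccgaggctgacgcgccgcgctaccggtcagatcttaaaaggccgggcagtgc
Adm, chr1:174179950-174180249, plus strand: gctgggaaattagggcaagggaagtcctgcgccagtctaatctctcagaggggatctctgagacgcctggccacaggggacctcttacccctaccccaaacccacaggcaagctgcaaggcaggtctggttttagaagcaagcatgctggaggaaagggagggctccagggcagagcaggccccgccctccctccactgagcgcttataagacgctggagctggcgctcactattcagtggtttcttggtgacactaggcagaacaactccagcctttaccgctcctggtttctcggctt
The Ldha window held 6 matches in 5 places, 3 of them ACGTG and 3 GCGTG, and the pair of places at -87 and -73 bases from the start lay close together. The Pfkfb3 window held 2 matches, both in 1 CACGTG that began at -42. A match describes the letters of this window and is not a binding site.

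Total counts ran from 44582251 to 60538627 per library. Libraries of 1 group differed widely: a first principal component carried 29.1% of their variance, and on it sham 3 and I/R 1 had the highest scores while the lowest were those of libraries 1 and 2 of the rapamycin group. Summed CPM (read counts scaled to library size, with TMM factors) of 3 globin genes, a measure of blood, ran from 84.8 to 524 in I/R + rapamycin, from 1242 to 3332 in I/R and from 245 to 2552 in sham. EdgeR called 0 of these 3 genes in any comparison, DESeq2 called 0 too, and all 3 were lower at an unadjusted p under 0.05 in I/R + rapamycin than in I/R. Of all tested genes 16.3% were under that p in this comparison, in either direction. The part of blood content in the values below was not tested. The labels name renal tubular cells as the cell type. The defining tubule genes were high (Slc34a1 averaged 1148 FPKM and Umod 623 FPKM over the 9 libraries), but podocyte, endothelial, leukocyte and globin genes were present too, and the extraction protocol names kidney tissue.

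The members spanned a wide range of levels in FPKM, which allows genes of different length to be compared. Ndrg1 stood highest, with a mean of 249 FPKM over the 9 libraries (range 221 to 332), higher than 98.6% of the genes in the table. Vegfa followed at 71.4 FPKM (59.5 to 81.3), then Ldha at 45.0 FPKM (38.9 to 50.7), Hif1a at 27.0 FPKM (22.5 to 29.3) and Egln1 at 14.8 FPKM (13.2 to 16.4). These 5 did not overlap and kept this order in all 9 libraries. Adm averaged 9.48 FPKM (5.63 to 19.8) and overlapped Egln1, which was above it in 8 of 9 libraries, the exception being sham 3. Egln3, at 3.53 FPKM (1.80 to 5.06), and Pfkfb3, at 3.03 FPKM (2.12 to 4.54), did not differ beyond their spread, with Egln3 above Pfkfb3 in 6 of 9 libraries.

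Hif1a encodes the oxygen-regulated alpha subunit of HIF. Hif1a (ENSRNOG00000008292) stood at 96.8, 110 and 106 CPM in I/R + rapamycin, at 114, 124 and 114 CPM in I/R and at 105, 119 and 122 CPM in sham. All 3 rapamycin libraries were below all 3 I/R libraries, and both groups overlapped sham. With edgeR's quasi-likelihood test the log2 fold change of I/R + rapamycin against I/R was -0.17 (SE 0.089, adjusted p = 0.367), that of I/R against sham 0.03 (SE 0.089, adjusted p = 0.957) and that of I/R + rapamycin against sham -0.15 (SE 0.089, adjusted p = 0.504). The 95% intervals of these 3 log2 fold changes lay between -0.37 and 0.22. Hif1a varied little: its spread within groups was smaller than that of all but 10.2% of tested genes.

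Egln1 encodes the prolyl hydroxylase that does most of the marking of HIF alpha in normal oxygen. Egln1 (ENSRNOG00000063609) was at 41.9, 46.0 and 41.3 CPM in I/R + rapamycin, at 37.5, 37.2 and 38.4 CPM in I/R and at 37.9, 46.3 and 39.2 CPM in sham. The rapamycin libraries all stood above the I/R libraries, and sham overlapped both. The log2 fold change was 0.19 for I/R + rapamycin against I/R (SE 0.095, edgeR adjusted p = 0.343), -0.13 for I/R against sham (SE 0.095, adjusted p = 0.73) and 0.07 for I/R + rapamycin against sham (SE 0.095, adjusted p = 0.80). Without sham 2 the values against sham were -0.034 for I/R and 0.16 for I/R + rapamycin.

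Egln3 encodes a related hydroxylase that is itself a HIF target and forms a feedback on the pathway. Egln3 (ENSRNOG00000005053) was at 16.6, 9.84 and 12.1 CPM in I/R + rapamycin, at 5.41, 8.75 and 14.5 CPM in I/R and at 10.2, 10.8 and 12.6 CPM in sham. The groups overlapped in every comparison, and the widest spread lay within the I/R group, where the highest library was 2.68 times the lowest. Its within-group spread exceeded that of 91.1% of tested genes. The log2 fold changes were 0.43 for I/R + rapamycin against I/R (SE 0.32, edgeR adjusted p = 0.543), -0.23 for I/R against sham (SE 0.32, adjusted p = 0.871) and 0.20 for I/R + rapamycin against sham (SE 0.32, adjusted p = 0.828). Without I/R 1 the value of I/R against sham became 0.05, so its direction rested on that library. The value of I/R + rapamycin against I/R was 0.14 without I/R 1, 0.86 without I/R 3 and 0.20 when I/R + rapamycin 1 was left out. Without I/R + rapamycin 1 the value of I/R + rapamycin against sham was -0.03. The FPKM of Egln1 was 2.92, 5.40 and 3.94 times that of Egln3 in I/R + rapamycin, 7.99, 4.91 and 3.06 times in I/R and 4.28, 4.95 and 3.59 times in sham. The libraries with the most Egln3, I/R + rapamycin 1 and I/R 3, also had the highest summed CPM of the 4 thick limb genes, 4728 and 4300 against 2294 to 3019 in the other 7. That pair of values was noticed after the data were seen, and its part in the Egln3 result was not tested. Gene by gene the likeness was looser. By Pearson correlation of log2(CPM + 0.5) over the 9 libraries, the 4 genes had r with Egln3 of 0.271 (Cldn16) to 0.726 (Umod). Among 11147 genes these were ranks 3737 and 253.

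Ldha encodes the A subunit of lactate dehydrogenase, which turns pyruvate to lactate in glycolytic cells. Ldha (ENSRNOG00000013009) was at 155, 133 and 138 CPM in I/R + rapamycin, at 115, 129 and 128 CPM in I/R and at 146, 159 and 157 CPM in sham. All I/R libraries were below all sham libraries and below all rapamycin libraries, and the rapamycin libraries overlapped sham. In group means Ldha stood at 142 ± 11.3 CPM in I/R + rapamycin, 124 ± 7.82 CPM in I/R and 154 ± 6.97 CPM in sham (SD, n = 3 each). The log2 fold change of I/R against sham was -0.31 (SE 0.09, edgeR adjusted p = 0.306, unadjusted p = 0.00556), the smallest p of the 8 members in that comparison, and DESeq2 gave an adjusted p of 0.0539 (range over alternatives 0.0539 to 0.725). For I/R + rapamycin against I/R it was 0.19 (SE 0.09, edgeR adjusted p = 0.317), and for I/R + rapamycin against sham -0.12 (SE 0.09, adjusted p = 0.608).

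Pfkfb3 encodes an enzyme that makes the main activator of phosphofructokinase and so raises the rate of glycolysis. Pfkfb3 (ENSRNOG00000018911) was at 12.8, 12.5 and 12.2 CPM in I/R + rapamycin, at 15.9, 20.8 and 23.0 CPM in I/R and at 18.6, 11.4 and 15.1 CPM in sham. The rapamycin libraries lay close together below all I/R libraries, and sham overlapped both groups. Group means were 12.5 ± 0.307 CPM in I/R + rapamycin, 19.9 ± 3.61 CPM in I/R and 15.04 ± 3.62 CPM in sham (SD, n = 3 each). The log2 fold change of I/R + rapamycin against I/R was -0.67 (SE 0.18, 95% interval -1.08 to -0.26), with an edgeR adjusted p of 0.15 and an unadjusted p of 0.00411. DESeq2 called it (adjusted p = 0.0296, range over alternatives 0.0296 to 0.405), and limma on log2(FPKM + 1) did not (adjusted p = 0.123). For I/R against sham the value was 0.40 (SE 0.18, edgeR adjusted p = 0.533), and for I/R + rapamycin against sham -0.27 (SE 0.18, adjusted p = 0.562). These became 0.24 for I/R without sham 2 and -0.087 for I/R + rapamycin without sham 1.

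**Figure D1:**
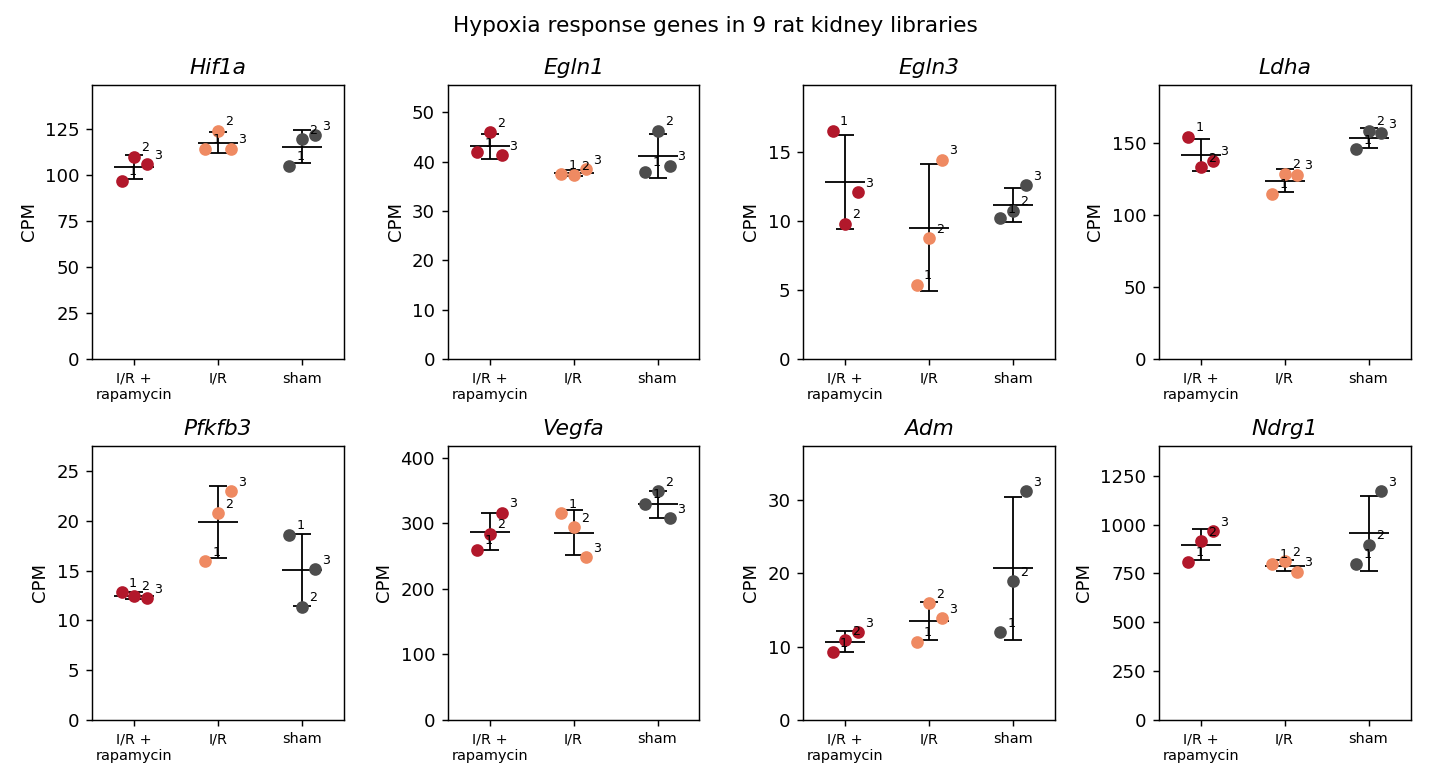
Level of each member in CPM (y axis, from 0) in the I/R + rapamycin, I/R and sham libraries (x axis); points are libraries with their replicate number, and bars are the mean and SD of 3. The Pfkfb3 points of I/R + rapamycin sit at 12.2 to 12.8 CPM below the I/R points at 15.9 to 23.0 CPM, and Adm and Ndrg1 have their highest point in sham 3.

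Vegfa encodes the growth factor that maintains and expands blood vessels, and in the kidney podocytes are a major source of it. Vegfa (ENSRNOG00000019598) was at 260, 285 and 317 CPM in I/R + rapamycin, at 316, 294 and 248 CPM in I/R and at 330, 349 and 308 CPM in sham. The groups overlapped in all 3 comparisons, with the lowest values in I/R 3 and I/R + rapamycin 1. The log2 fold change was 0.00 for I/R + rapamycin against I/R (SE 0.12, 95% interval -0.25 to 0.26, edgeR adjusted p = 0.99), -0.20 for I/R against sham (SE 0.12, adjusted p = 0.635) and -0.20 for I/R + rapamycin against sham (SE 0.12, adjusted p = 0.487). The 2 comparisons with sham share the sham libraries.

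The pattern of Vegfa over the 9 libraries was close to that of genes of podocytes, the cells that wrap the glomerular capillaries. By Pearson correlation of log2(CPM + 0.5) over the 9 libraries, the 2 genes most like Vegfa among 11147 with a unique symbol were Rnase4, a ribonuclease gene (r = 0.967), and Ptpro, a receptor phosphatase of podocyte foot processes (r = 0.962). The 5 podocyte genes reported had r of 0.842 (Podxl) to 0.962 (Ptpro) with Vegfa. These correlations are descriptions of 9 libraries that share their depth and tissue sampling. Summed CPM of these 5 was 442, 507 and 623 in I/R + rapamycin, 696, 540.2 and 471 in I/R and 713, 688 and 679 in sham. All sham values were above all rapamycin values, I/R 1 lay within the sham range, and the lowest podocyte sums stood in the libraries with the least Vegfa. EdgeR called 0 of the 5 podocyte genes in any comparison, with 1, 0 and 3 of them lower at an unadjusted p under 0.05 in I/R against sham, I/R + rapamycin against I/R and I/R + rapamycin against sham. Of all tested genes 9.42%, 16.3% and 13.8% were under that p in the same order, in either direction. DESeq2 called 0 of the 5. Divided by that sum, Vegfa was at 0.589, 0.562 and 0.508 in I/R + rapamycin, 0.453, 0.544 and 0.527 in I/R and 0.463, 0.507 and 0.453 in sham, a ratio chosen after the values were seen and not tested. In whole tissue, fewer cells of a type and less RNA per cell cannot be told apart, and the part of podocyte content in the Vegfa values was not tested. The 7 endothelial genes had r with Vegfa from -0.41 (Tek) to 0.777 (Kdr), 2 of them above 0.

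Adm encodes adrenomedullin, a peptide that widens blood vessels. Adm (ENSRNOG00000027030) was at 9.22, 10.9 and 11.9 CPM in I/R + rapamycin, at 10.7, 15.9 and 13.9 CPM in I/R and at 12.0, 18.9 and 31.2 CPM in sham. The rapamycin libraries were all below the sham libraries, by a narrow margin between I/R + rapamycin 3 at 11.94 CPM and sham 1 at 11.97 CPM, and the I/R libraries overlapped both groups. Sham 3 stood far above the other 8 libraries. The log2 fold change of I/R + rapamycin against sham was -0.95 (SE 0.31, 95% interval -1.64 to -0.27), with an edgeR adjusted p of 0.23 and an unadjusted p of 0.0116. DESeq2 called it (adjusted p = 0.042, range over alternatives 0.042 to 0.581). Without sham 3 the value was -0.53 (SE 0.22, edgeR adjusted p = 0.421). For I/R against sham it was -0.62 (SE 0.30, edgeR adjusted p = 0.574), or -0.20 (SE 0.22) without sham 3, and for I/R + rapamycin against I/R -0.33 (SE 0.30, adjusted p = 0.626).

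Over the 9 libraries Adm ran with immediate early and heat shock genes, which rise within minutes of handling or stress. The genes most like it were Rangap1, a regulator of nuclear transport (r = 0.969), and Hspa1b, an inducible heat shock gene (r = 0.964). All 6 genes of the handling and stress list that had a row in the FPKM table had r of 0.770 (Egr1) to 0.964 (Hspa1b) with Adm. Their summed CPM was 250, 240 and 325 in I/R + rapamycin, 291, 1400 and 1545 in I/R and 489, 1163 and 2771 in sham. Sham 3 was highest in both measures. The rapamycin libraries were low in both, and so was I/R 1, which lay within the rapamycin range in each. EdgeR called 0 of these 6 genes in any comparison. At an unadjusted p under 0.05, 0, 3 and 4 of them were lower in I/R against sham, I/R + rapamycin against I/R and I/R + rapamycin against sham, and DESeq2 called 0, 2 and 3 of them lower. Over all tested genes the shares in either direction were 9.42%, 16.3% and 13.8% at that p. DESeq2 called 1.38%, 5.2% and 3.59% of the genes to which it gave an adjusted p. The part of handling in the Adm result was not tested.

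**Figure D2:**
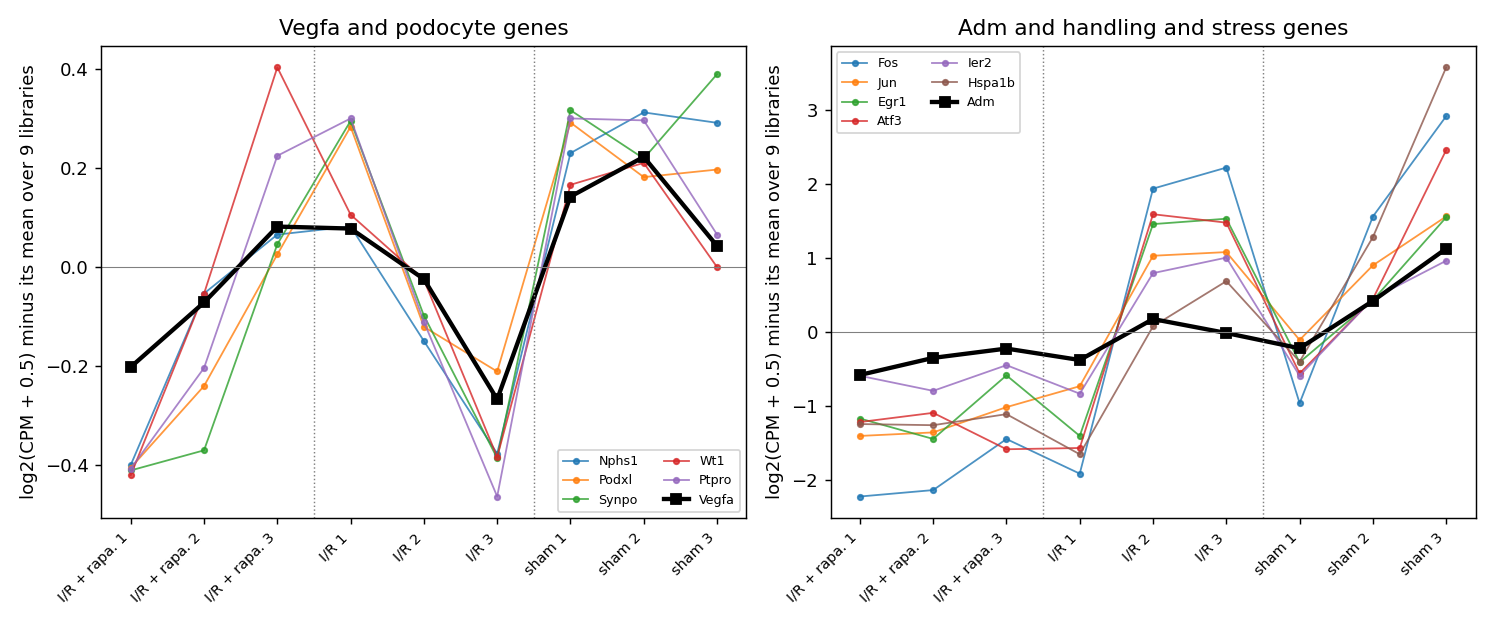
Left, Vegfa (black squares) and 5 podocyte genes; right, Adm (black squares) and 6 immediate early and heat shock genes; the y axis is log2(CPM + 0.5) minus the gene's own mean over the 9 libraries, and the x axis lists the libraries with dotted lines between groups. Vegfa and the podocyte genes have low points at I/R + rapamycin 1 and I/R 3, and Adm and 5 of the 6 stress genes are highest in sham 3, the exception being Ier2.

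Ndrg1 encodes a cytoplasmic stress-response protein that is a strong HIF target in many cell lines. Ndrg1 (ENSRNOG00000007393) was at 809.5, 914 and 965 CPM in I/R + rapamycin, at 799, 812 and 759 CPM in I/R and at 799, 898 and 1170 CPM in sham. The groups overlapped in all 3 comparisons, and sham 3 was again the highest. The log2 fold change was 0.18 for I/R + rapamycin against I/R (SE 0.14, edgeR adjusted p = 0.56), -0.27 for I/R against sham (SE 0.14, adjusted p = 0.591) and -0.09 for I/R + rapamycin against sham (SE 0.14, adjusted p = 0.817). Without sham 3 the last of these was 0.08, so its direction rested on that library, and I/R against sham was at -0.10.

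Across the 8 members, none was called by edgeR at an adjusted p under 0.05 in any comparison. In I/R against sham 0 of 8 were called, beside 0.0577% of the 17335 tested genes, and 1 (Ldha, lower) had an unadjusted p under 0.05, beside 9.42% of tested genes. For I/R + rapamycin against I/R, 0 of 8 were called, beside 0.127%, and 1 (Pfkfb3, lower) had an unadjusted p under 0.05, beside 16.3%. For I/R + rapamycin against sham, 0 of 8 were called, beside 0.156%, and 1 (Adm, lower) had an unadjusted p under 0.05, beside 13.8%. The members come from the FPKM table, and of its 11232 tested genes 10.6%, 19.6% and 15.1% were under that p in these comparisons. In the same order, DESeq2 called 0, 1 and 1 of the 8 members, beside 1.38%, 5.2% and 3.59% of the genes to which it gave an adjusted p. Limma on log2(FPKM + 1) called 0 of 8 in each, beside 0.196%, 0.107% and 0.16% of the FPKM table.

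The groups did not overlap for 1 of 8 members in I/R against sham, beside 14.6% of tested genes. They did not overlap for 4 of 8 in I/R + rapamycin against I/R, beside 24.6%. Of these 4, Egln1 and Ldha were higher and Hif1a and Pfkfb3 lower with rapamycin, so the 4 did not share a direction. The count was 1 of 8 for I/R + rapamycin against sham, beside 19.3%. Of the 11232 tested genes of the FPKM table, from which the members come, 1751, 3144 and 2238 did not overlap in these 3 comparisons. These counts use CPM. In FPKM, Ldha overlapped between I/R + rapamycin and I/R, while Hif1a and Ldha were lower without overlap in I/R + rapamycin than in sham. The median log2 fold change of the 8 was -0.22 in I/R against sham, 0.09 for I/R + rapamycin against I/R and -0.13 for I/R + rapamycin against sham, beside 0.00, 0.01 and 0.00 over all tested genes. Of the 8, 6 were fitted below 0 in I/R against sham, the exceptions being Hif1a and Pfkfb3.

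**Figure D3:**
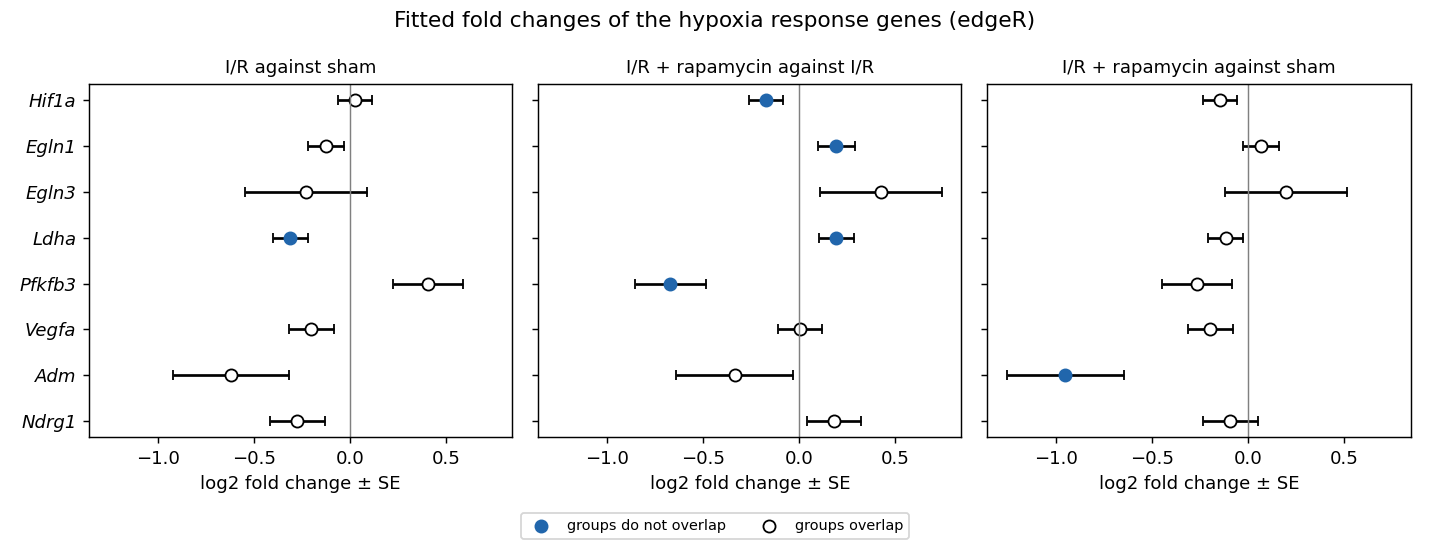
Log2 fold change (x axis) with its standard error for each member (y axis) in the 3 comparisons, from edgeR; filled points mark members whose libraries did not overlap between the groups in CPM. The largest values are -0.95 for Adm in I/R + rapamycin against sham and -0.67 for Pfkfb3 between I/R + rapamycin and I/R; no member passed an adjusted p of 0.05.

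The members did not move as a block across libraries. Of 28 pairs, 18 had a correlation of log2(CPM + 0.5) above 0 and 10 below 0, with a median of 0.196. The highest was between Hif1a and Adm (r = 0.745) and the lowest between Egln1 and Pfkfb3 (r = -0.82). The 2 genes most like each of the other members were Copa and Aass for Hif1a (r = 0.976 and 0.973), Mrps12 and Pop4 for Egln1 (0.954 and 0.944), Zfand2b and Sf3a3 for Egln3 (0.946 and 0.919), Flot1 and Tfg for Ldha (0.971 and 0.957), Snrnp200 and Pi4ka for Pfkfb3 (0.965 and 0.953), and Parp1 and Abcf1 for Ndrg1 (0.936 and 0.935). These are descriptions of 9 libraries, ranked over 11147 genes.

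EdgeR and limma also called 0 genes of the further pathway lists. For the list counts below, the comparisons were, in order, I/R against sham, I/R + rapamycin against I/R and I/R + rapamycin against sham. Over all tested genes 9.42%, 16.3% and 13.8% had an unadjusted edgeR p under 0.05 in them, in either direction. Among tested genes of the FPKM table, from which the lists were read, the shares were 10.6%, 19.6% and 15.1%. DESeq2 called 1.38%, 5.2% and 3.59% of the genes to which it gave an adjusted p. Of 15 listed regulators of HIF, 14 were measured, which here means that they had a row in the FPKM table. EdgeR and DESeq2 called 0 of the 14 in each comparison. Listed genes without a row, in this and the other lists, were not examined. In I/R against sham 0 of the 14 had an unadjusted p under 0.05, with a median log2 fold change of 0.02. The smallest p values were those of Elob, an elongin subunit of the VHL ligase (-0.29, SE 0.14), and Vhl itself (0.14, SE 0.078). In I/R + rapamycin against I/R 2 were higher and 2 lower at an unadjusted p under 0.05 (median -0.03). Ep300, a coactivator of HIF, averaged 54.0 ± 5.88 CPM in I/R + rapamycin, against 70.9 ± 7.23 CPM in I/R, a log2 fold change of -0.39 (SE 0.14, edgeR adjusted p = 0.226), and Elob 75.4 ± 9.56 CPM in I/R + rapamycin, against 57.6 ± 11.4 CPM in I/R (0.39, SE 0.14, adjusted p = 0.235). Set against sham, 1 was higher and 2 lower in I/R + rapamycin (median 0.04). Egln2, the third prolyl hydroxylase gene, averaged 53.4 ± 0.747 CPM in I/R + rapamycin and 44.4 ± 2.86 CPM in sham (0.27, SE 0.089, edgeR adjusted p = 0.234). Arnt, the partner of HIF alpha, averaged 45.3 ± 4.18 CPM in I/R + rapamycin and 53.3 ± 3.21 CPM in sham (-0.23, SE 0.088, adjusted p = 0.288).

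Of 22 listed genes of glycolysis and lactate handling, 16 were measured, and edgeR and DESeq2 called 0 in each comparison. Median log2 fold changes were -0.09 in I/R against sham, with 12 of 16 fitted below 0, 0.02 for I/R + rapamycin against I/R and 0.03 for I/R + rapamycin against sham. In I/R against sham 2 were higher at an unadjusted p under 0.05, and none was under it in the other comparisons. Those 2 were Pfkfb4, a relative of Pfkfb3, at 14.8 ± 1.36 CPM in I/R and 9.96 ± 1.10 CPM in sham (0.57, SE 0.20, edgeR adjusted p = 0.419), and Pdk1, a kinase that restrains pyruvate entry into mitochondria, at 10.9 ± 0.307 CPM in I/R and 8.20 ± 1.92 CPM in sham (0.41, SE 0.18, adjusted p = 0.528). Between I/R + rapamycin and I/R the glycolytic enzyme genes Tpi1 and Aldoa were at 0.22 (SE 0.10) and 0.24 (SE 0.14), and in I/R + rapamycin against sham Eno1 and Pkm were at -0.29 (SE 0.15) and -0.28 (SE 0.14).

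Of 31 other hypoxia targets listed, 27 were measured, and edgeR called 0 in each comparison. At an unadjusted p under 0.05, 1 was higher and 1 lower in I/R against sham, 2 higher and 2 lower for I/R + rapamycin against I/R, and 1 higher and 1 lower in I/R + rapamycin against sham, with medians of 0.01, 0.00 and -0.03. Ankrd37, an ankyrin repeat gene and HIF target, averaged 18.6 ± 3.51 CPM in I/R + rapamycin, 13.3 ± 3.49 CPM in I/R and 10.2 ± 1.39 CPM in sham, and all rapamycin libraries stood above all sham libraries. Its log2 fold change against sham was 0.87 (SE 0.21, edgeR adjusted p = 0.138), which DESeq2 called, the only one it called in this list. Bhlhe40, a transcriptional repressor, was at -0.30 (SE 0.12) in that comparison. Between I/R and sham the transferrin receptor gene Tfrc was at -0.27 (SE 0.099) and the collagen lysyl hydroxylase gene Plod1 at 0.36 (SE 0.15). Between I/R + rapamycin and I/R, Fam162a, a mitochondrial protein gene, was at 0.27 (SE 0.10) and Ankrd37 at 0.48 (SE 0.21).

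**Figure D4:**
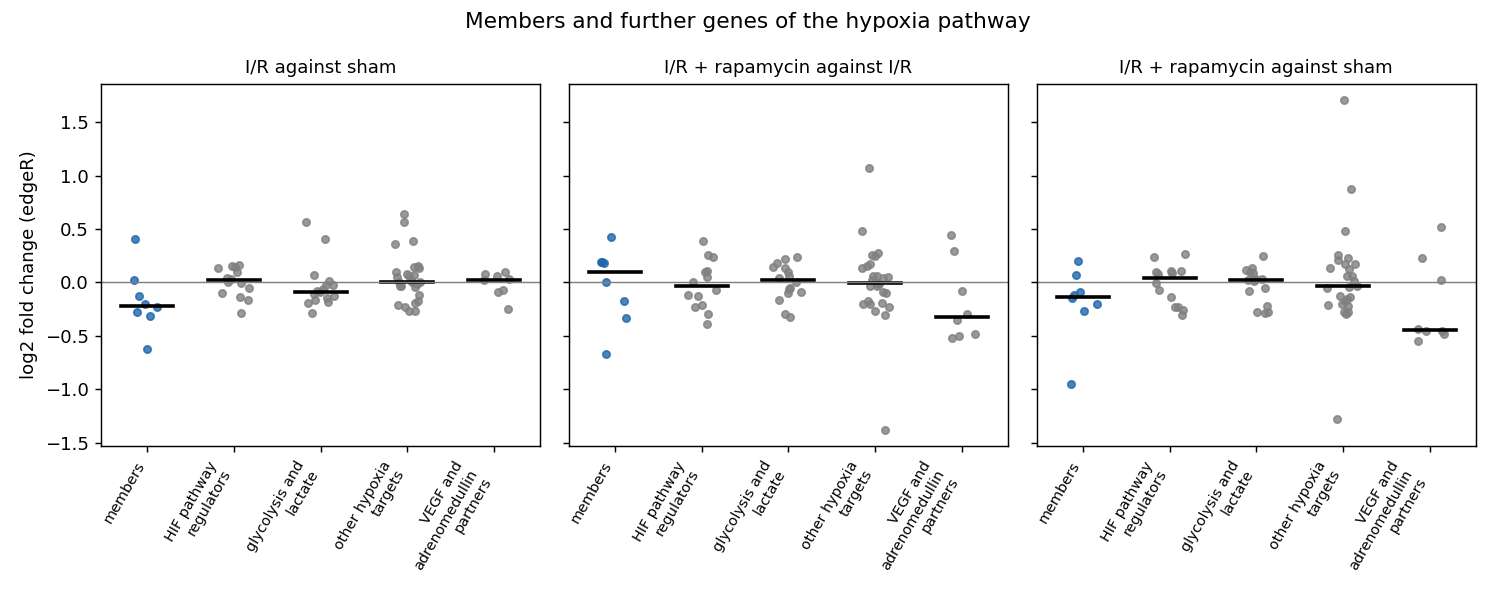
Log2 fold changes from edgeR (y axis) of the 8 members and of 4 further gene lists (x axis) in the 3 comparisons; points are genes and black lines medians. The medians of the members and of the first 3 further lists lie between -0.22 and 0.09, and that of the VEGF and adrenomedullin list at -0.32 and -0.44 in the 2 comparisons of I/R + rapamycin.

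The ligands and receptors that act with Vegfa and Adm had, of the 5 pathway lists, the medians farthest from 0 in both comparisons of I/R + rapamycin. Of 13 listed, 8 were measured, with medians of 0.02 in I/R against sham, -0.32 for I/R + rapamycin against I/R and -0.44 for I/R + rapamycin against sham. EdgeR called 0 of the 8 in each comparison. At an unadjusted p under 0.05, 1 was lower in the first, 1 higher and 3 lower in the second, and 1 higher and 4 lower in the third. Of all tested genes 9.42%, 16.3% and 13.8% were under it, in either direction. DESeq2 called 0 in the first and 1 higher and 1 lower in each of the others. It called 1.38%, 5.2% and 3.59% of the genes to which it gave an adjusted p. Over 11232 genes the fold changes moved with transcript length (Spearman -0.483 and -0.256 across genes in the comparisons of I/R + rapamycin with I/R and with sham). The lengths implied by the tables were 7716 bases for Flt1, 7908 for Kdr and 5589 for Nrp1, against 2868 for Vegfb and 1449 for Ramp3. Length did not part the whole list, since Calcrl, Vegfc and Vegfd had implied lengths of 3640, 2148 and 1998 bases. Their log2 fold changes for I/R + rapamycin against I/R were -0.48, -0.08 and -0.50. With the length trend of each library as an offset, an alternative chosen after seeing the data, the list medians were 0.02, -0.19 and -0.38. For I/R + rapamycin against I/R, Flt1 was then at -0.15, Kdr at -0.19, Nrp1 at -0.42 and Vegfb at 0.40. Ramp3 was at 0.12 with it, Calcrl at -0.47, Vegfc at -0.18 and Vegfd at -0.61. For I/R + rapamycin against sham, Flt1 was at -0.47, Kdr at -0.36, Nrp1 at -0.41 and Vegfb at 0.49. In I/R against sham the offset gave -0.32 for Flt1.

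Vegfb, a ligand related to Vegfa that acts through FLT1, was at 43.6, 40.9 and 37.3 CPM in I/R + rapamycin, at 30.0, 31.6 and 28.0 CPM in I/R and at 28.2, 31.0 and 25.9 CPM in sham. All rapamycin libraries were above all others. Its log2 fold change was 0.44 against I/R (SE 0.10, edgeR adjusted p = 0.117) and 0.52 against sham (SE 0.10, adjusted p = 0.0935), and DESeq2 called both. Flt1, a VEGF receptor gene of endothelium, was at 47.1, 51.8 and 62.1 CPM in I/R + rapamycin, at 71.3, 63.2 and 63.6 CPM in I/R and at 72.9, 80.5 and 81.3 CPM in sham. No pair of groups overlapped, and the log2 fold changes were -0.30 for I/R + rapamycin against I/R (SE 0.11, edgeR adjusted p = 0.231), -0.54 for I/R + rapamycin against sham (SE 0.11, adjusted p = 0.0938) and -0.24 for I/R against sham (SE 0.11, adjusted p = 0.522). DESeq2 called the second of these. The VEGF coreceptor gene Nrp1 was at 54.6, 73.4 and 81.6 CPM in I/R + rapamycin, at 112, 93.2 and 94.3 CPM in I/R and at 92.2, 84.1 and 111 CPM in sham. All rapamycin libraries were below the rest, with log2 fold changes of -0.52 against I/R (SE 0.15, edgeR adjusted p = 0.169, called by DESeq2) and -0.45 against sham (SE 0.15, adjusted p = 0.241).

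The main VEGF receptor gene Kdr averaged 95.2 ± 19.6 CPM in I/R + rapamycin, 121 ± 22.5 CPM in I/R and 129 ± 5.54 CPM in sham, and the adrenomedullin receptor gene Calcrl averaged 11.4 ± 2.11 CPM in I/R + rapamycin, 16.0 ± 3.54 CPM in I/R and 15.7 ± 1.17 CPM in sham (SD, n = 3 each). Both were chosen for mention after their values were seen, and neither passed the edgeR test (adjusted p = 0.309 and 0.245 for I/R + rapamycin against I/R). Ramp3, a partner with which Calcrl forms an adrenomedullin receptor, was at 0.29 (SE 0.15) in that comparison. Summed CPM of the 7 endothelial genes was 527 to 597 in I/R + rapamycin, 577 to 597 in I/R and 568 to 634 in sham. Their log2 fold changes for I/R + rapamycin against I/R ran from -0.35 (Kdr) to 0.29 (Egfl7, a gene of a secreted endothelial protein), 3 of the 7 above 0, with a median of -0.02. Kdr is in both lists. EdgeR called 0 of the 7, 1, 1 and 2 were higher and 0, 0 and 1 lower at an unadjusted p under 0.05 in I/R against sham, I/R + rapamycin against I/R and I/R + rapamycin against sham, and DESeq2 called 0.

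**Figure D5:**
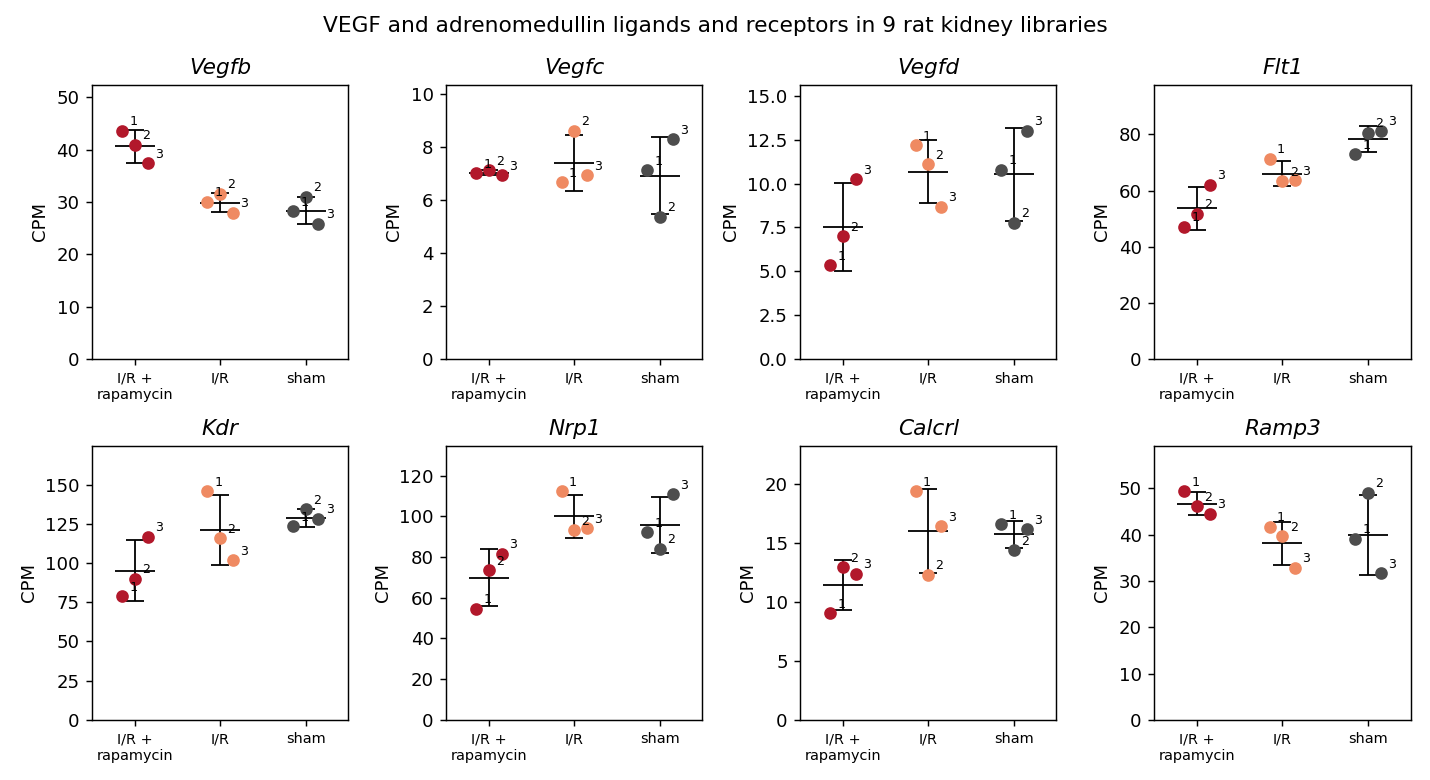
Level in CPM (y axis, from 0) of the 8 measured ligands and receptors of the VEGF and adrenomedullin systems in the I/R + rapamycin, I/R and sham libraries (x axis); points are libraries with their replicate number, and bars are the mean and SD of 3. The Vegfb points of I/R + rapamycin, at 37.3 to 43.6 CPM, lie above all others, and the Nrp1 points, at 54.6 to 81.6 CPM, below all others.

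Relatives of the members were measured for 6 of 10 listed (Ndrg2, Egln2, Ldhb, Pfkfb4, Vegfb and Vegfc), and edgeR called 0 in each comparison. DESeq2 called Vegfb in both comparisons of I/R + rapamycin and no other. At an unadjusted p under 0.05, 1, 2 and 2 were higher and 0 lower in I/R against sham, I/R + rapamycin against I/R and I/R + rapamycin against sham, with medians of 0.05, 0.08 and 0.14. Ldhb, the other common lactate dehydrogenase subunit, averaged 402 FPKM over the 9 libraries, against 45.0 FPKM for Ldha, and Ndrg2 averaged 17.3 FPKM, against 249 FPKM for Ndrg1. Ldhb had log2 fold changes of -0.10 in I/R against sham (SE 0.15) and 0.13 in I/R + rapamycin against I/R (SE 0.15). It was at 0.03 for I/R + rapamycin against sham (SE 0.15), where Ldha was at -0.12.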

How the data were processed

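RNA of 9 rat kidney libraries (poly(A), paired reads of 150 bases, per the labels' protocols) was analysed. The authors deposited raw read counts per Ensembl gene ID and, per the file headers, FPKM; the FPKM table lists genes that reach 1 FPKM in 8 or 9 of the libraries. Per the submitters' processing notes cutadapt, HISAT2, StringTie, DESeq2 and build Rnor_6.0 were used; the sources used here give no versions, strand setting or rule for counting, so antisense or overlapping genes are not separable. Symbols come from the FPKM table, so a listed gene counted as measured only if it had a row there. A gene above 1 FPKM in only 1 group has no row, and such genes were not looked up among the tested counts.

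Counts were tested in R 4.3.3 with edgeR 4.0.16 (TMM, filterByExpr, robust quasi-likelihood, all 9 libraries, no covariates), calling genes at a Benjamini-Hochberg adjusted p under 0.05 over all tested genes. SE is the log2 fold change over the square root of F, and 95% intervals use the test's degrees of freedom. The fit was tested on simulated data. Alternatives were DESeq2 1.42.0, limma 3.58.1 on log2(FPKM + 1) and log2(FPKM + 0.1), other factors and filters, a replicate block, a length offset and left-out libraries. Chi-square per degree of freedom between libraries of a group was 33.7 to 133, so none was a copy. The part of depth in the precision was not tested.

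The members and lists were chosen with earlier results of these data known. Genes named are the members, the 2 of each pathway list with the smallest p per comparison, the 2 genes most like each member, and those said to be chosen later. Others were named outside this rule, among them Ramp3, Ldhb, Ndrg2, Slc34a1, Umod and marker genes at the ends of a range, such as Egfl7. A gene of the podocyte list is not reported here. The marker lists not described beside a result (proximal tubule, distal tubule, collecting duct, intercalated, inner medulla, fibroblast and leukocyte) had 0 genes called by edgeR in any comparison, at most 2 genes of a list on either side of 0 at an unadjusted p under 0.05, and 0 or 1 called by DESeq2. Of the thick limb genes edgeR and DESeq2 called 0, with 1 higher at an unadjusted p under 0.05 in I/R against sham.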

Additional observations from a re-analysis of the deposited data

How the results depend on the processing

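No member was called by edgeR or limma under any alternative, and DESeq2 called 1 member, Pfkfb3, for I/R + rapamycin against I/R, plus 1, Adm, for I/R + rapamycin against sham. Of 432 member values (24 fold changes under 18 alternatives), 419 kept direction and side of the threshold, and 11 changed sign. In I/R against sham, Hif1a ran, leaving out 1 library, from -0.037 (without sham 1) to 0.067 (without sham 3), with -0.015 without I/R 2 and 0.084 without both I/R 1 and sham 3, and Egln3 from -0.66 (without I/R 3) to 0.053 (without I/R 1), with 0.15 without both I/R 1 and sham 3. For I/R + rapamycin against I/R, Vegfa ran from -0.089 (without I/R 3) to 0.081 (without I/R 1), and was -0.059 and -0.060 with limma at pseudocounts of 1 and 0.1. For I/R + rapamycin against sham, Egln3 ran from -0.030 to 0.36 (I/R + rapamycin 1 and then I/R + rapamycin 2 left out), and Ndrg1 from -0.21 (without sham 1) to 0.076 (without sham 3), also 0.076 without both I/R 1 and sham 3. Leaving out 1 library moved 19 of the 24 values by over 1.5 times or changed their sign. This is a ratio of log2 fold changes, so values near 0 pass it on small shifts. Vegfa for I/R + rapamycin against I/R went from 0.0049 to 0.0014 without sham 1. Other moves were large, such as Egln3 in I/R against sham, from -0.23 to -0.66 without I/R 3. The cause of the moves was not tested. With the length offset the median of the glycolysis list turned to -0.02 for I/R + rapamycin against I/R and -0.03 against sham, and that of the relatives of the members to -0.0030 against I/R. For the members in I/R + rapamycin against I/R, this offset gave -0.13 for Hif1a, 0.14 for Egln1, 0.41 for Egln3 and 0.17 for Ldha. It gave -0.59 for Pfkfb3 (implied length 5246 bases), 0.05 for Vegfa, -0.48 for Adm and 0.19 for Ndrg1.

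Counts over all genes moved too. In I/R against sham 10 were called, against 239 with DESeq2, 22 and 25 with limma at pseudocounts of 1 and 0.1, 2 with only the 6 libraries compared, 28 with the length offset, 67 without both I/R 1 and sham 3, and 0 (without I/R 3 or sham 2) to 36 (without I/R 1) leaving out 1 library. Of all genes 22 were called for I/R + rapamycin against I/R, against 708, 12, 11, 6, 15 and 128 in the same order, and 0 (I/R + rapamycin 1, I/R + rapamycin 2 or sham 1 left out) to 47 (I/R 1 left out). Similarly 27 were called for I/R + rapamycin against sham, against 573, 18, 19, 19, 34 and 104, and 3 (I/R + rapamycin 1 left out) to 47 (I/R 1 left out). With the replicate number as a block 1, 1 and 7 genes and no member were called. Deviations of same-numbered libraries from their group means correlated at -0.341 to 0.179. With means of 3 libraries, and trends shared by many genes, these values cannot settle whether the numbers are paired. Fold changes followed transcript length implied by the tables (Spearman 0.304, -0.483 and -0.256 across 11232 genes, which are not replicates). How depth bears on these values was not tested.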
